A study of Caenorhabditis elegans with 16 samples.

Results

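Auxin-treated *syp-2::AID* worms were compared with auxin-treated N2 worms, which takes 8 of the 16 libraries in the series, 4 of each strain. *Caenorhabditis elegans* hermaphrodites were grown at 20 °C on *E. coli* OP50 and, as young adults 18 to 24 h after the L4 larval stage, spent 4 h on medium containing 4 mM auxin (indole acetic acid, IAA). Total RNA of whole worms was then sequenced. *syp-2::AID* worms carry an auxin-inducible degron on SYP-2 and make TIR1, the plant F-box protein that hands degron-tagged proteins to the proteasome in the presence of auxin, from the germline promoter of *sun-1*. N2 worms are the wild-type strain and have neither the tag nor TIR1, but they received the same auxin. The 2 groups therefore differ in 2 ways that cannot be told apart within these 8 libraries, namely the loss of SYP-2 and the strain itself. For that reason the 8 untreated libraries (*syp-2::AID* and N2 worms labelled as controls, 4 each, sharing no library with the auxin comparison) are given beside it. The sources do not say if solvent was added to the plates without auxin.

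SYP-2 is one of the central region proteins of the synaptonemal complex (SC), the zipper-like structure that holds homologous chromosomes together along their lengths during meiotic prophase. During meiotic prophase in the worm germline, double-strand breaks made by SPO-11 are repaired, some of them as crossovers. When SC proteins are missing, breaks persist and chromosomes stay unsynapsed, and both states are watched by checkpoints that end in death of germ cells in late pachytene. The killer of damaged germ cells is EGL-1, a BH3-only protein that frees CED-4 from CED-9 and so lets the caspase CED-3 act. Adult hermaphrodites also hold a large soma and fertilised eggs, so whole-worm RNA averages over germline, soma and embryos, and fewer cells of a type cannot be told apart from less RNA per cell.

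The 4 *syp-2::AID* libraries held 14668136 to 16334961 counts and the 4 N2 libraries 13964761 to 16537215. Within the *syp-2::AID* group, replicates 3 and 4 were unlike the rest. In them the counts of short genes were high and those of long genes low: across genes, the rank correlation between exon length and the deviation from the 8-library mean was −0.539 in replicate 3 and −0.639 in replicate 4, against 0.221 to 0.434 in the other 6 libraries. Ribosomal protein genes, which are short, made up 18.92% and 19.03% of all counts in this pair, against 11.41% to 12.76% in the other 6 libraries. The share of yolk protein genes was 5.392% and 5.167%, against 7.621% to 8.398% in those 6. The chi-square between counts of 2 libraries, per gene, was 96.3 or more between replicates 1 or 2 and replicates 3 or 4, 11.2 between replicates 3 and 4, and 5.32 to 14.4 between N2 libraries. Replicates 1 and 2 were the closest pair of the series (2.95). Results are therefore given for all 8 libraries and again for the 6 libraries without replicates 3 and 4, and the second set rests on 2 *syp-2::AID* libraries that were unusually alike.

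**Figure D1:**
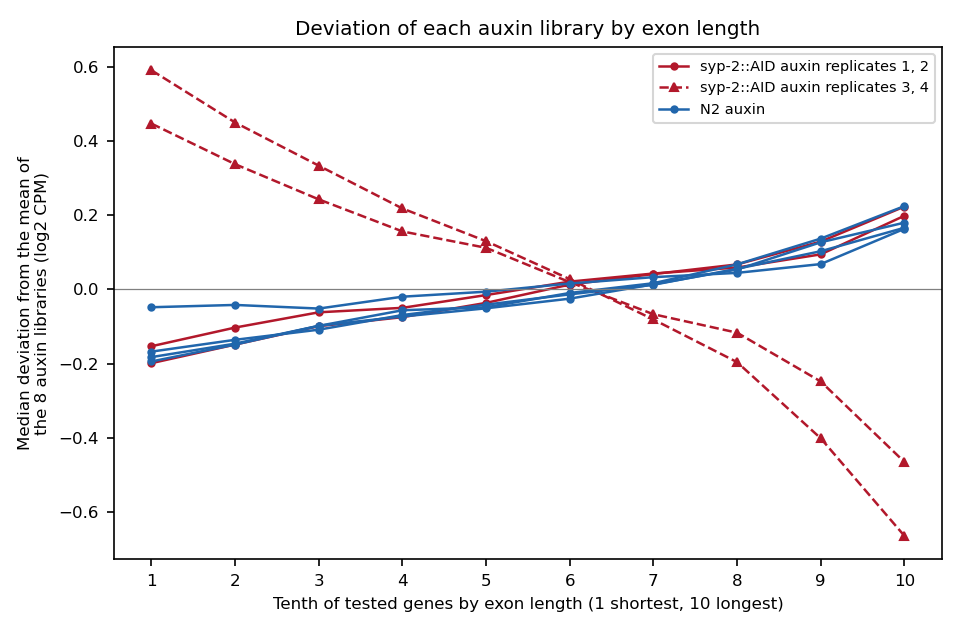
Median deviation of each auxin library from the mean of the 8 auxin libraries (log2 CPM, counts scaled to a common library size) in 10 equal bins of the tested genes ordered by exon length, with 1 line per library. The dashed lines with triangles, replicates 3 and 4 of *syp-2::AID* worms, lie at 0.45 and 0.59 in the bin of shortest genes and at −0.46 and −0.66 in the bin of longest genes, while the other 6 lines run the other way and end between 0.16 and 0.22.

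With all 8 libraries, 3 of 11244 tested genes differed between the strains (0.0267%), 2 of them higher and 1 lower in *syp-2::AID* worms, by the quasi-likelihood test of edgeR at a Benjamini-Hochberg adjusted p under 0.05. At an unadjusted p under 0.05 there were 1873 genes. Groups of 4 that did not overlap were more common, at 709 genes (6.31%) with every *syp-2::AID* library above every N2 library and 627 genes (5.58%) with every *syp-2::AID* library below. The 3 genes that passed were *spp-23*, *F57H12.6* and *Y53G8AR.6*.

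*spp-23*, which codes for a protein of the saposin-like family, whose better-known members lyse bacteria, was at 16.7, 19.4, 30.01 and 33.02 CPM (the usual unit of read counts scaled to library size) in *syp-2::AID* libraries 1 to 4 and at 4.49, 6.75, 6.17 and 6.52 CPM in N2 libraries. Replicates 3 and 4 of *syp-2::AID* worms were the highest, and all 4 were above every N2 library. The log2 fold change was 2.00 (SE 0.23, 95% interval 1.48 to 2.52, edgeR adjusted p = 0.0416) with 8 libraries and 1.60 (SE 0.16) with 6. The strains also differed in *spp-23* without auxin, by a log2 fold change of 0.94 (edgeR adjusted p = 0.0168).

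*F57H12.6*, known here only by its sequence name, was at 7.67, 12.01, 8.84 and 11.8 CPM in *syp-2::AID* libraries, against 3.24, 2.27, 3.37 and 2.803 CPM in N2 libraries. Here replicates 3 and 4 lay among the others. The log2 fold change was 1.74 (SE 0.21, edgeR adjusted p = 0.0416) with 8 libraries and again 1.74 (SE 0.22) with 6. In untreated worms it was −0.11 (edgeR adjusted p = 0.883), with 0.837 to 2.46 CPM in *syp-2::AID* libraries and 1.21 to 2.88 CPM in N2 libraries. The test of the difference between both strain differences gave a log2 value of 1.87 that did not pass (edgeR adjusted p = 0.174).

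*Y53G8AR.6* was the gene that fell. It was at 41.1, 38.3, 42.3 and 40.2 CPM in *syp-2::AID* libraries, against 63.96, 76.2, 74.1 and 70.6 CPM in N2 libraries. The spread within either strain was small beside the gap between them, and the log2 fold change was −0.85 (SE 0.09, edgeR adjusted p = 0.0416). The same gap was present without auxin, at −0.88 (edgeR adjusted p = 0.0015). Its neighbour on chromosome III, *Y53G8AR.8*, fell with 6 libraries (−0.72, SE 0.10, edgeR adjusted p = 0.00134) and in untreated worms (−0.90, edgeR adjusted p = 0.00226), and with 8 libraries had a log2 fold change of −0.58 (edgeR adjusted p = 0.107). *Y53G8AR.7* overlaps *Y53G8AR.8* on the other strand.

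**Figure D2:**
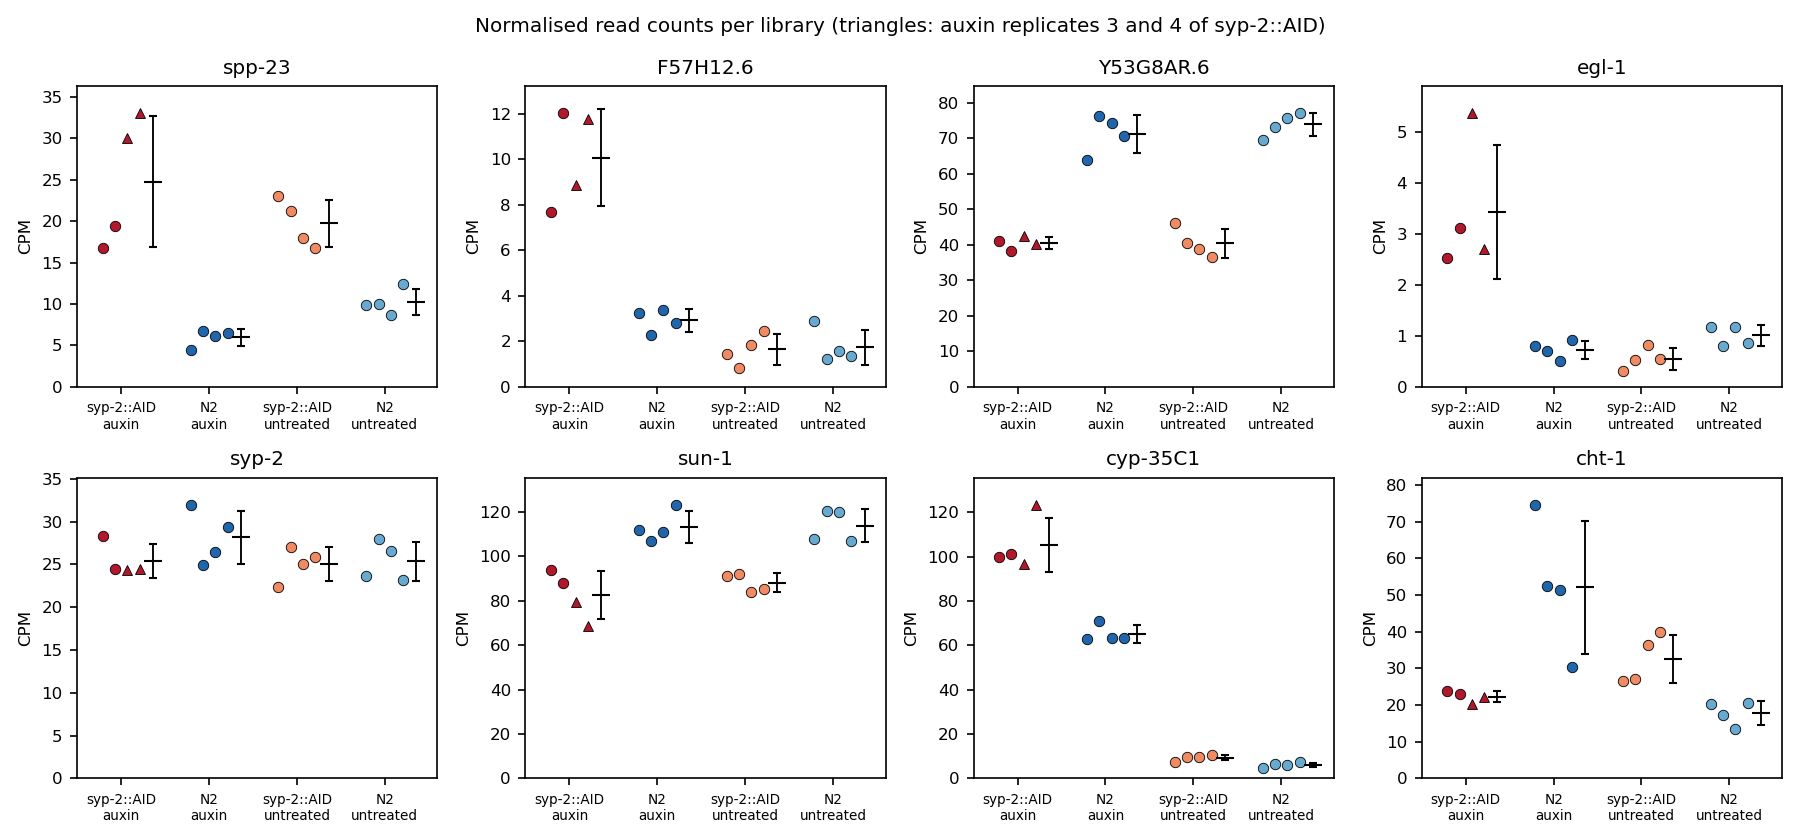
CPM of 8 genes in each library of the 4 groups, with the mean and SD of each group of 4 beside the points. Triangles mark the *syp-2::AID* auxin replicates 3 and 4. *spp-23* and *Y53G8AR.6* keep their strain gap in untreated worms, while *egl-1* and *F57H12.6* are high in auxin-treated *syp-2::AID* worms alone.

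These 3 calls stood near the threshold. *spp-23* and *F57H12.6* each passed under 12 of 21 alternative settings and *Y53G8AR.6* under 11, with adjusted p-values of 1.1e-11 to 0.249, 2.31e-10 to 0.276 and 3.36e-15 to 0.276. Leaving out any 1 library other than *syp-2::AID* replicate 1 left 0 genes past the threshold, whereas DESeq2 on the same 8 libraries called 314 genes (2.79%). Without replicates 3 and 4 the estimated biological coefficient of variation was 0.0893, against 0.208 with them, and edgeR called 301 of 11715 genes (2.57%), 183 higher (1.56%) and 118 lower (1.01%) in *syp-2::AID* worms. Of these 301, 58 differed by 2-fold or more (31 higher, 27 lower) and the median size of the log2 difference was 0.61. In 150 of them all 4 *syp-2::AID* libraries, replicates 3 and 4 included, lay on one side of all 4 N2 libraries, and in the rest the groups of 4 overlapped. Replicates 1 and 2 and the same N2 libraries gave the 301 calls, so part of this separation came with the selection. Over all 11244 genes tested with 8 libraries, 709 (6.31%) were separate as higher and 627 (5.58%) as lower. The number itself was not stable, at 39 and 53 genes without *syp-2::AID* replicate 1 or 2 and at 146, 743, 101 and 738 genes without N2 replicates 1, 2, 3 and 4 in that order.

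The transcript of *syp-2* was at 28.3, 24.4, 24.3 and 24.5 CPM in *syp-2::AID* libraries, against 31.9, 24.9, 26.4 and 29.3 CPM in N2 libraries. The groups overlapped, and the log2 fold change was −0.19 (SE 0.12, edgeR adjusted p = 0.381) with 8 libraries and −0.09 (SE 0.11) with 6. The degron removes protein, so this transcript does not check which worms lost SYP-2. The other genes for SC central region proteins were close to it. Of 6 tested, none passed in either direction by edgeR or DESeq2 and 0 had an unadjusted p under 0.05. Their log2 fold changes ran between −0.19 for *syp-2* and 0.33 for *Y54E10A.12* (*syp-5*), with a median of 0.052 beside 0.00242 over all tested genes.

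*egl-1*, which starts the death of damaged germ cells, was at 2.52, 3.12, 5.37 and 2.71 CPM in *syp-2::AID* libraries, against 0.796, 0.710, 0.499 and 0.914 CPM in N2 libraries. Every *syp-2::AID* library was above every N2 library, and replicate 3 was the highest. The log2 fold change was 2.17 (SE 0.32, 95% interval 1.46 to 2.88), yet its edgeR adjusted p of 0.0626 missed the threshold with 8 libraries. It passed under 6 of 20 alternatives, with adjusted p-values of 5.53e-06 to 0.3. With 6 libraries it rose by 1.93 (SE 0.32, edgeR adjusted p = 0.00647).

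Untreated worms did not show this gap. *egl-1* was at 0.303 to 0.811 CPM in untreated *syp-2::AID* libraries, against 0.807 to 1.18 CPM in untreated N2 libraries (log2 fold change −0.88, edgeR adjusted p = 0.138). The difference between both strain differences, tested over all 16 libraries, was 3.08 on the log2 scale (SE 0.47, edgeR adjusted p = 0.0304). Of 11776 genes, 2 passed this test (0.017%), *egl-1* and *cht-1*. With replicates 3 and 4 left out its edgeR adjusted p was 0.1.

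No other gene of the death pathway passed. Of 9 tested apoptosis genes, *egl-1* had the highest log2 fold change and *ced-3*, the caspase, the lowest at −0.53, and the median was 0.000389. With 6 libraries *egl-1* alone of the 9 passed, and the other 8 lay between −0.10 and 0.24. *ced-1*, the receptor through which neighbouring cells engulf corpses, was at 71.1, 68.0, 54.01 and 37.5 CPM in *syp-2::AID* libraries, against 87.8, 92.4, 84.8 and 76.6 CPM in N2 libraries. Its groups did not overlap, replicates 3 and 4 were the lowest, and the log2 fold change was −0.60 (edgeR adjusted p = 0.262) with 8 libraries and −0.29 (edgeR adjusted p = 0.0615) with 6. Of 10 engulfment genes and 13 damage checkpoint genes tested, none passed in either set of libraries. Over all genes, 3 of 11244 passed with 8 libraries and 301 of 11715 with 6. With 8 libraries 1 gene of each list had an unadjusted p under 0.05, beside 1873 of 11244 over all genes.

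Genes for meiotic double-strand breaks and their control showed no call with 8 libraries, over 9 DSB formation genes, 20 recombination repair genes and 13 crossover genes (2, 0 and 0 at an unadjusted p under 0.05). DESeq2 called 1 of the DSB formation genes, higher. Among all 11244 tested genes 3 passed by edgeR, 1873 had an unadjusted p under 0.05, and DESeq2 called 165 higher and 149 lower. *spo-11*, the break-making transesterase, was at 19, 18.8, 35.6 and 41.98 CPM in *syp-2::AID* libraries, against 11.9, 15.6, 12.97 and 16.6 CPM in N2 libraries. Its groups did not overlap, most of the gap came with replicates 3 and 4, and the log2 fold change was 0.96 (SE 0.26, edgeR adjusted p = 0.201) with 8 libraries and 0.41 (SE 0.13, edgeR adjusted p = 0.133) with 6. *enpl-1* overlaps it on the other strand, and the strand setting of the counting is not given, so their reads cannot be told apart.

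*dsb-2*, which promotes break formation, was at 33.02, 34.8, 41.97 and 42.4 CPM in *syp-2::AID* libraries, against 31.2, 30.97, 31.2 and 30.3 CPM in N2 libraries. The groups did not overlap, and the log2 fold change was 0.25 (SE 0.10, edgeR adjusted p = 0.278) with 8 libraries and 0.13 (SE 0.08, edgeR adjusted p = 0.394) with 6. *exl-1* lies antisense to it. *chk-2*, the kinase that licenses pairing and break formation in early prophase, was at 6.24, 7.57, 3.62 and 1.74 CPM in *syp-2::AID* libraries, against 5.46, 6.18, 6.86 and 8.41 CPM in N2 libraries. Replicates 3 and 4 were lowest and replicates 1 and 2 lay among the N2 libraries, so that the log2 fold change was −0.50 (edgeR adjusted p = 0.452) with 8 libraries and 0.04 (edgeR adjusted p = 0.951) with 6. *Y60A3A.29* lies antisense to *chk-2*.

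*sun-1*, which codes for the inner nuclear membrane protein that links chromosome ends to the cytoskeleton and whose promoter drives TIR1 in the degron strain, was at 93.6, 87.9, 79.5 and 68.8 CPM in *syp-2::AID* libraries, against 112, 107, 111 and 123 CPM in N2 libraries. The groups did not overlap. It fell by 0.32 with 6 libraries (SE 0.07, edgeR adjusted p = 0.0295) and had a log2 fold change of −0.49 with 8 (SE 0.13, edgeR adjusted p = 0.188). Untreated *syp-2::AID* worms also had less *sun-1* RNA than untreated N2 worms (−0.38, edgeR adjusted p = 0.0259), and the difference between both was −0.09 (edgeR adjusted p = 0.721).

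*him-8*, whose zinc finger protein binds the pairing center of the X chromosome, was at 21.7, 25.8, 30.6 and 29.3 CPM in *syp-2::AID* libraries, against 17.1, 19.2, 20.5 and 20.7 CPM in N2 libraries, and *coh-1*, a cohesin kleisin of somatic cells, at 10.7, 11.8, 6.38 and 4.87 CPM in *syp-2::AID* libraries, against 14.3, 13.3, 16.02 and 14.3 CPM in N2 libraries. Both pairs of groups were apart, but neither gene passed (edgeR adjusted p = 0.221 for *him-8* and 0.262 for *coh-1*). Over the 327 tested meiotic genes that the study lists, 0 passed with 8 libraries (median log2 fold change −0.117, 39 at an unadjusted p under 0.05). DESeq2 called 9 of them, 3 higher and 6 lower. Over all 11244 tested genes 1873 had an unadjusted p under 0.05, and DESeq2 called 314. Beside 301 of 11715 over all genes, 4 of 328 meiotic genes passed with 6 libraries. These were *egl-1*, which was higher, and *sun-1*, *cyb-3* and *mesp-1*, which were lower.

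Most of the 301 genes had a strain difference of the same sign without auxin. Of these, 290 were also tested in untreated worms, which gave 278 calls of 11113 genes (2.5%), and 258 of the 290 (89%) had the same sign there, beside 7565 of 11023 (68.6%) over all genes tested in both. In both comparisons 50 genes passed, and all 50 had the same direction, 29 higher and 21 lower in *syp-2::AID* worms. They were 16.6% of the auxin calls and 18% of the untreated calls. Of the 3 genes called with 8 libraries, *spp-23* and *Y53G8AR.6* were among the 50.

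**Figure D3:**
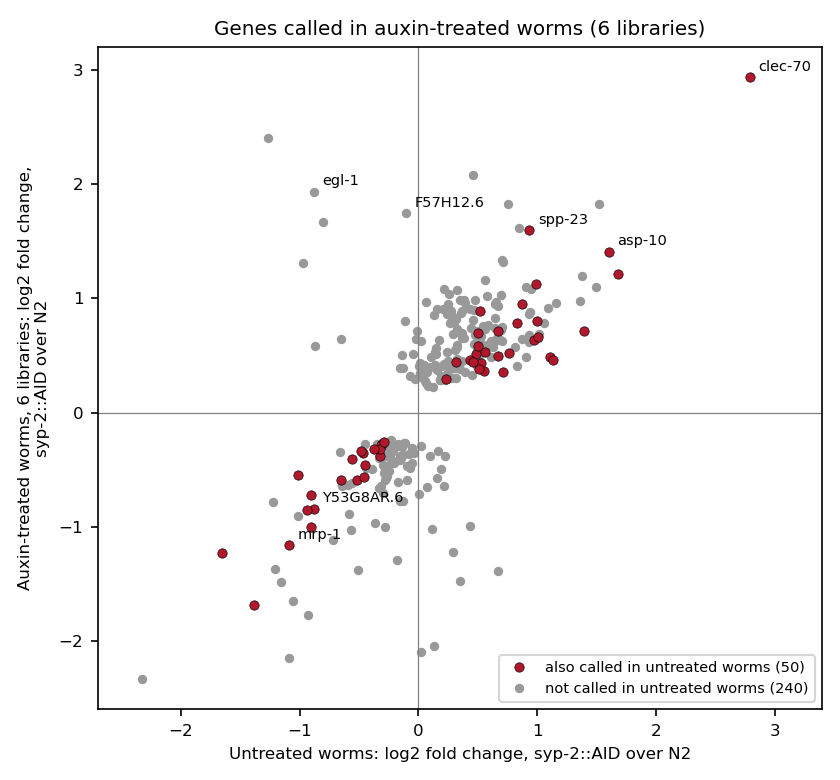
Log2 fold changes of *syp-2::AID* over N2 worms for the 290 genes called in auxin-treated worms with 6 libraries and tested in untreated worms, with untreated worms on the x axis and auxin-treated worms on the y axis. The 50 red points, called in both, lie only where both values have the same sign, and *egl-1* lies at −0.88 without auxin and 1.93 with it.

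Values for some of the genes with a gap in both treatments follow, chosen after they were seen. *asp-10*, for an aspartyl protease, was at 53.4, 68.0, 50.4 and 39.7 CPM in auxin-treated *syp-2::AID* libraries, against 20.9, 24.3, 21.6 and 24.7 CPM in auxin-treated N2 libraries. It rose by 1.41 with 6 libraries (edgeR adjusted p = 6.17e-05) and by 1.60 in untreated worms (edgeR adjusted p = 0.00256), and with 8 libraries had a log2 fold change of 1.18 (edgeR adjusted p = 0.0626). *asp-12* and *W07B8.1* (*cpr-8*, a cathepsin B-like protease) were called higher in the same way, with log2 fold changes of 0.63 and 1.12 with 6 libraries and 0.97 and 0.99 without auxin. *asp-14*, another aspartyl protease, was called lower (−0.59 and −0.52), so these proteases did not move in one direction.

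*F58G6.9* (*chca-1*, a copper transporter) was at 40.9, 38.1, 48.9 and 60.1 CPM in *syp-2::AID* libraries, against 20.5, 23.8, 24.8 and 21.8 CPM in N2 libraries. *cuc-1*, for a copper chaperone, was at 42.4, 39.9, 58.5 and 73.6 CPM in *syp-2::AID* libraries, against 30.02, 30.6, 29.6 and 31.9 CPM in N2 libraries. Both genes were above N2 in all 4 libraries and highest in replicates 3 and 4. They rose by 0.80 and 0.43 with 6 libraries (edgeR adjusted p = 0.000507 and 0.00873) and by 1.00 and 0.52 in untreated worms (edgeR adjusted p = 0.0015 and 0.0281).

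Among the genes lower in both treatments, *mrp-1*, an ABC transporter of the multidrug resistance protein family, was at 10.9, 12.2, 4.06 and 5.14 CPM in *syp-2::AID* libraries, against 25.8, 28.1, 25.9 and 23.8 CPM in N2 libraries. Replicates 3 and 4 were the lowest, and the other *syp-2::AID* libraries were still below every N2 library. It fell by 1.16 with 6 libraries (SE 0.11, edgeR adjusted p = 0.000291) and by 1.09 in untreated worms (edgeR adjusted p = 0.0113), and with 8 libraries had a log2 fold change of −1.70 with a wider error (SE 0.33, edgeR adjusted p = 0.116). *lea-1*, related to plant proteins of desiccated seeds, was at 472, 500, 498 and 360 CPM in *syp-2::AID* libraries, against 730, 700, 701 and 717 CPM in N2 libraries, and fell by 0.55 with 6 libraries and by 1.02 in untreated worms (edgeR adjusted p = 0.000507 and 0.0399). *acl-2* overlaps *lea-1* on the other strand. *dyf-3*, which sensory cilia need, and *F09C8.1* were called lower in both as well, at −1.004 and −1.69 with 6 libraries.

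A few genes had a strain gap with auxin and hardly any RNA without it. *K12D9.1* was at 4.64, 2.73, 1.52 and 1.88 CPM in *syp-2::AID* libraries, against 8.02, 11.5, 9.102 and 8.77 CPM in N2 libraries, and 0 to 0.0668 CPM over the 8 untreated libraries. It fell by 1.33 with 6 libraries (SE 0.23, edgeR adjusted p = 0.00854), and with 8 had a log2 fold change of −1.80 (edgeR adjusted p = 0.101). *fil-1*, a lipase gene known for its rise on fasting, was at 1.26, 1.02, 1.09 and 1.25 CPM in *syp-2::AID* libraries, against 2.84, 3.48, 3.06 and 2.07 CPM in N2 libraries, and at 0.108 to 0.539 CPM without auxin. It fell by 1.31 with 6 libraries (SE 0.31, edgeR adjusted p = 0.0399). The untreated comparison did not test either gene.

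Detoxification genes were higher in *syp-2::AID* worms more often than lower. Cytochromes P450 oxidise foreign molecules, UDP-glucuronosyltransferases attach a sugar to them and glutathione S-transferases attach glutathione. With 8 libraries 0 of 57, 0 of 49 and 0 of 30 tested members passed, with medians of 0.214, 0.29 and 0.367 on the log2 scale and 41, 42 and 29 members above 0. At an unadjusted p under 0.05 there were 16, 13 and 12, and DESeq2 called 5 higher and 2 lower, 4 higher and 4 higher. Over all 11244 tested genes 1873 had an unadjusted p under 0.05, and DESeq2 called 165 higher and 149 lower. With 6 libraries 7 P450 genes were higher and 1 lower of 59, 9 UDP-glucuronosyltransferase genes were higher and 0 lower of 51, and 3 glutathione S-transferase genes were higher and 0 lower of 33, beside 183 higher and 118 lower of 11715 over all genes. The medians were then 0.169, 0.376 and 0.302, beside −0.000594 over all tested genes. In the same 6 libraries the medians of somatic tissue markers were above 0 too. They were 0.429 for pharynx, 0.296 for neuron, 0.213 for intestine, 0.135 for body wall muscle, 0.11 for hypodermis and 0.0666 for somatic gonad. The germline marker median was 0.0541. With 8 libraries the marker medians were 0.215 for pharynx, 0.0434 for neuron, −0.0693 for intestine and −0.105 for body wall muscle. They were 0.0463 for hypodermis, −0.0689 for somatic gonad and −0.163 for germline.

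*cyp-35C1* was at 99.6, 101, 96.8 and 123 CPM in auxin-treated *syp-2::AID* libraries, against 62.6, 71.0, 63.2 and 63.3 CPM in auxin-treated N2 libraries, and at 7.58 to 10.6 CPM in untreated *syp-2::AID* libraries, against 4.64 to 7.21 CPM in untreated N2 libraries. Both strains had higher values on auxin plates, and the *syp-2::AID* libraries were above the N2 libraries in both settings. The log2 fold change was 0.65 (SE 0.10, edgeR adjusted p = 0.0626) with 8 libraries, 0.63 (SE 0.07, edgeR adjusted p = 0.000507) with 6 and 0.61 (edgeR adjusted p = 0.0626) in untreated worms, and the difference between the treatments was 0.07.

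*cyp-35A5* was at 27.2, 21.2, 22.3 and 25.5 CPM in *syp-2::AID* libraries, against 13.3, 14.1, 13.1 and 10.8 CPM in N2 libraries, and rose by 0.92 with 6 libraries (edgeR adjusted p = 0.00217). *cyp-35A3* and *cyp-33A1* rose by 0.58 and 0.84 (edgeR adjusted p = 0.00961 and 0.00335). The gene that fell was *cyp-13A7*, by 1.08 (edgeR adjusted p = 0.034). In all 4 genes replicates 3 and 4 lay on the same side of the N2 libraries as replicates 1 and 2. The other P450 genes called, *cyp-35A2*, *cyp-29A2* and *cyp-14A4*, rose by 0.32, 0.80 and 1.56 with 6 libraries. With 8 libraries their log2 fold changes were 0.19, 0.53 and 1.32 (edgeR adjusted p = 0.357, 0.292 and 0.226).

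Of the UDP-glucuronosyltransferase genes, *ugt-1* was at 7.44, 7.69, 4.86 and 8.06 CPM in *syp-2::AID* libraries, against 3.24, 4.40, 3.62 and 3.11 CPM in N2 libraries, and *ugt-19* at 17.1, 19.6, 16.24 and 17.4 CPM in *syp-2::AID* libraries, against 10.01, 12.64, 12.9 and 10.9 CPM in N2 libraries. Both kept all 4 libraries above N2 and rose by 1.08 and 0.66 with 6 libraries (edgeR adjusted p = 0.00873 and 0.0183). *ugt-62* was at 150, 148, 106 and 97.9 CPM in *syp-2::AID* libraries, against 94.4, 107, 113 and 102 CPM in N2 libraries. It was high in replicates 1 and 2 alone, as was *ugt-13*, so its rise of 0.52 with 6 libraries (edgeR adjusted p = 0.00181) came with a log2 fold change of 0.24 (edgeR adjusted p = 0.418) with 8. *ugt-37*, which rose by 1.45, overlaps *ugt-40*, and reads of such related neighbours may be shared.

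*gst-5* was at 109, 111, 91.1 and 107 CPM in *syp-2::AID* libraries, against 60.4, 83.9, 64.2 and 61.7 CPM in N2 libraries. *gst-10* was at 20.8, 18.3, 21.8 and 31.8 CPM in *syp-2::AID* libraries, against 11.6, 14.4, 12.7 and 8.84 CPM in N2 libraries. All 4 *syp-2::AID* libraries were above N2 in both, and both rose with 6 libraries, by 0.70 and 0.72 (edgeR adjusted p = 0.0387 and 0.0394), as did *gst-26* by 0.53 (edgeR adjusted p = 0.0445). *nos-1* lies antisense to *gst-5*.

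The summed CPM of the tested members was 870 to 948 in *syp-2::AID* libraries, against 716 to 782 in N2 libraries, for P450 genes. For UDP-glucuronosyltransferases it was 689 to 816 in *syp-2::AID* libraries, against 578 to 687 in N2 libraries. Neither pair of ranges overlapped, though the second was nearly closed. For glutathione S-transferases the ranges overlapped, at 905 to 1331 in *syp-2::AID* libraries, against 783 to 920 in N2 libraries. In untreated worms the medians of the log2 fold changes were 0.131 for P450 genes, 0.272 for UDP-glucuronosyltransferases and 0.295 for glutathione S-transferases, with 1, 2 and 0 members called, all higher.

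**Figure D4:**
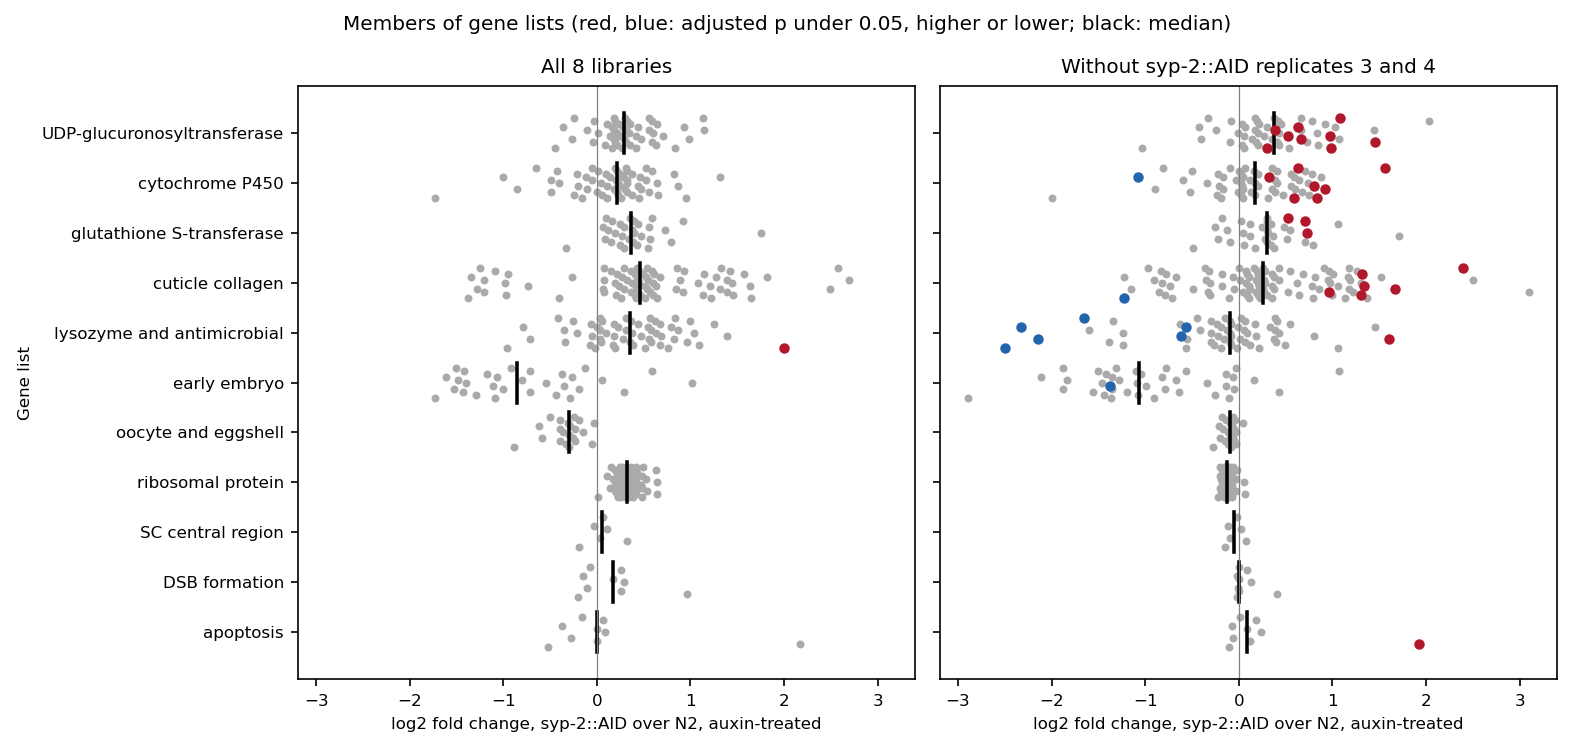
Log2 fold changes of *syp-2::AID* over N2 worms with auxin for the tested members of 11 gene lists, with 8 libraries on the left and without *syp-2::AID* replicates 3 and 4 on the right. Each point is a gene, red and blue points passed an adjusted p of 0.05 as higher or lower, and black bars are medians. The ribosomal protein median lies at 0.32 on the left and −0.13 on the right, while the medians of the 3 detoxification lists stay above 0 in both and single members lie on either side.

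The fatty acid genes that passed with 6 libraries were a pair of desaturase genes, *fat-5* and *fat-7*, and both were higher. *fat-7* was at 187, 176, 238 and 231 CPM in *syp-2::AID* libraries, against 127, 110, 121 and 127 CPM in N2 libraries, and *fat-5* at 110, 99.6, 154 and 125 CPM in *syp-2::AID* libraries, against 65.2, 73.9, 76.8 and 75.2 CPM in N2 libraries. Neither pair of groups overlapped. With 6 libraries these were 2 of 15 tested fatty acid synthesis and desaturation genes, beside 183 higher of 11715 over all genes. The 2 rose by 0.58 and 0.53 (edgeR adjusted p = 0.000507 and 0.00216). With 8 libraries their log2 fold changes were 0.73 and 0.70 (edgeR adjusted p = 0.0626 and 0.101). In untreated worms 4 of the 15 were called higher, beside 138 higher of 11113 over all genes. The list median was 0.294 in untreated worms and 0.0488 with auxin and 6 libraries. *fat-7* also rose in untreated worms, by 0.50 (edgeR adjusted p = 0.0337), where *fat-5* had 0.14 (edgeR adjusted p = 0.255). *twk-42* lies antisense to *fat-5*.

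*hpd-1*, for an enzyme of tyrosine breakdown, was at 262, 261, 159 and 182 CPM in *syp-2::AID* libraries, against 122, 162, 138 and 142.3 CPM in N2 libraries. It rose by 0.89 with 6 libraries (SE 0.09, edgeR adjusted p = 0.000785) and by 0.52 in untreated worms (edgeR adjusted p = 0.0416), but replicate 3 lay below N2 replicate 2. Of 162 tested nuclear hormone receptor genes, *nhr-14*, *nhr-114* and *nhr-135* were called with 6 libraries, all higher, a share close to that over all genes (1.56% higher). In all 3, replicates 3 and 4 lay within or below the N2 range (*nhr-14* was at 11.7, 13.6, 4.35 and 1.81 CPM in *syp-2::AID* libraries, against 7.04 to 8.29 CPM in N2 libraries), and with 8 libraries none of 152 passed (21 at an unadjusted p under 0.05, 1 called lower by DESeq2). Over all genes 1873 of 11244 had an unadjusted p under 0.05 with 8 libraries.

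Cuticle collagen genes, whose products form the worm's outer layer, had a median log2 fold change of 0.459 over 82 tested members with 8 libraries, with 69 above 0, none past the threshold and 43 at an unadjusted p under 0.05. DESeq2 called 14 higher and 1 lower. Over all 11244 tested genes 1873 had an unadjusted p under 0.05, and DESeq2 called 165 higher and 149 lower. With 6 libraries the median was 0.26 and 6 of 94 were higher and 1 lower, beside 183 higher and 118 lower of 11715 over all genes. *col-129* was at 45.0, 38.5, 42.8 and 57.2 CPM in *syp-2::AID* libraries, against 15.7, 22.9, 12.7 and 15.2 CPM in N2 libraries, and rose by 1.34 with 6 libraries (SE 0.21, edgeR adjusted p = 0.0353). *col-142* was at 203, 215, 289 and 309 CPM in *syp-2::AID* libraries, against 89.4, 149, 109 and 117 CPM in N2 libraries, with a log2 fold change of 1.08 with 8 libraries (edgeR adjusted p = 0.0673) and 0.85 with 6 (edgeR adjusted p = 0.126). *T15B7.14* lies antisense to *col-142*.

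*col-43* went the other way, at 2.17, 1.84, 1.16 and 2.50 CPM in *syp-2::AID* libraries, against 3.92, 6.39, 4.18 and 4.57 CPM in N2 libraries, and fell by 1.23 with 6 libraries (edgeR adjusted p = 0.0267). The collagens' summed CPM was 45414 to 74314 in *syp-2::AID* libraries, highest in replicates 3 and 4, against 36418 to 50741 in N2 libraries. The hypodermis markers, genes of the tissue that makes the cuticle, summed to 6500 to 11547 CPM in *syp-2::AID* libraries, again highest in replicates 3 and 4, against 5112 to 7106 CPM in N2 libraries. That list itself holds collagen genes, and over its 7 tested members the median log2 fold change was 0.0463, with 4 above 0. The part of replicates 3 and 4 or of the hypodermis in the collagen values was not tested. In untreated worms the median over the collagens was −0.386.

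Lysozyme and antimicrobial peptide genes changed their order when replicates 3 and 4 were left out. With 8 libraries 1 of 56 passed (*spp-23*, higher) and the median was 0.357. With 6 libraries 183 of 11715 genes were higher and 118 lower over all genes. In this list *spp-23* was then higher and 6 of 58 were lower, with a median of −0.0937. Those 6 were *fipr-23*, *fipr-24*, *fipr-26*, *ilys-2*, *lys-4* and *nlp-30*, the last with a log2 fold change of 0.76 with 8 libraries and −0.61 with 6. *lys-4*, a lysozyme gene, was at 107, 109, 191 and 224 CPM in *syp-2::AID* libraries, against 152, 169, 155 and 164 CPM in N2 libraries. Replicates 1 and 2 were thus below N2 and replicates 3 and 4 above it. *fipr-23* was at 4.98, 5.02, 19.4 and 22.6 CPM in *syp-2::AID* libraries, against 19.2, 17.2, 15.7 and 10.6 CPM in N2 libraries, and split in the same way. *lys-4* also fell in untreated worms, by 0.46 (edgeR adjusted p = 0.00679).

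C-type lectin genes, many of them expressed in the intestine, gave 5 calls in each direction of 72 tested with 6 libraries and none of 70 with 8 (20 at an unadjusted p under 0.05, 4 called higher by DESeq2). Over all genes, 183 of 11715 were higher and 118 lower with 6 libraries. With 8 libraries 1873 of 11244 had an unadjusted p under 0.05, and DESeq2 called 165 higher and 149 lower. *clec-62*, *clec-63* and *clec-65* lie beside each other among the called genes of chromosome II and fell by 0.40, 0.48 and 0.52. *clec-63* was at 463, 492, 650 and 549 CPM in *syp-2::AID* libraries, against 632, 756, 644 and 640 CPM in N2 libraries. Replicate 3 lay inside the N2 range. *clec-210* was higher in all 4 libraries, at 13.8, 14.4, 14.5 and 18.4 CPM in *syp-2::AID* libraries, against 8.13, 10.6, 8.48 and 8.96 CPM in N2 libraries, and rose by 0.64 with 6 libraries (edgeR adjusted p = 0.0265). *srt-56* lies antisense to it. *clec-70* passed with 6 libraries and in untreated worms, by 2.94 and 2.79 (edgeR adjusted p = 0.0168 and 0.0407), from at most 0.142 CPM in auxin-treated N2 libraries.

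Genes first transcribed in the early embryo mostly had lower counts in auxin-treated *syp-2::AID* worms than in auxin-treated N2 worms, but with 8 libraries none passed. The list has 64 genes, of which 30 were tested with 8 libraries. The filter keeps a gene that reaches the count minimum in 1 strain alone, so members high only in N2 worms could enter. Over 30 tested members the median log2 fold change was −0.856 with 8 libraries, 4 were above 0, and in 8 every *syp-2::AID* library was below every N2 library, beside 627 of 11244 over all tested genes (5.58%). At an unadjusted p under 0.05 there were 17, beside 1873 of 11244, and DESeq2 called 0 higher and 9 lower. With 6 libraries the median over 40 was −1.06 and *sdz-14* alone was called. The summed CPM of the 30 was 265, 234, 187 and 194 in *syp-2::AID* libraries, against 351, 326, 315 and 269 in N2 libraries. The groups did not overlap, with replicates 3 and 4 lowest among *syp-2::AID* libraries and replicate 4 lowest among N2 libraries.

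*sdz-14*, named for its dependence on the maternal factor SKN-1, was at 1.43, 1.65, 1.30 and 1.74 CPM in *syp-2::AID* libraries, against 5.63, 4.05, 3.99 and 2.44 CPM in N2 libraries. It fell by 1.38 with 6 libraries (SE 0.33, edgeR adjusted p = 0.0428) and had a log2 fold change of −1.43 with 8 (SE 0.27, edgeR adjusted p = 0.103). *linc-18* lies antisense to it. *sdz-30* was at 5.55, 1.91, 2.90 and 4.101 CPM in *syp-2::AID* libraries, against 13.5, 10.2, 10.9 and 6.34 CPM in N2 libraries (log2 fold change −1.53, edgeR adjusted p = 0.15). *vet-6*, a very early transcript, was at 13.3, 6.87, 3.55 and 4.45 CPM in *syp-2::AID* libraries, against 31.1, 28.1, 22.8 and 11.03 CPM in N2 libraries (−1.73, edgeR adjusted p = 0.195), and its groups overlapped through N2 replicate 4.

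The linker histone genes *his-24* and *hil-3*, those with the smallest p of 7 tested, had the same shape. Over the 7 the median log2 fold change was −0.032 with 8 libraries, with 3 above 0. Their summed CPM overlapped, at 784 to 1072 in *syp-2::AID* libraries, against 883 to 956 in N2 libraries. With 6 libraries the median over 8 linker histone genes was −0.551. *his-24* was at 25.8, 26.2, 29 and 33.5 CPM in *syp-2::AID* libraries, against 63.2, 50.1, 53.5 and 27.9 CPM in N2 libraries, and *hil-3* at 14.8, 12.7, 13.1 and 15.1 CPM in *syp-2::AID* libraries, against 28.5, 26.1, 26.3 and 14.2 CPM in N2 libraries. In both, N2 replicates 1 to 3 were high and N2 replicate 4 lay with the *syp-2::AID* libraries, and neither passed (edgeR adjusted p = 0.202 and 0.188). *M163.16* and *M163.19* lie antisense to *his-24*. The same N2 library was the lowest N2 value of *pes-10*, *sdz-14* and *vet-6*. *aptf-4*, for an AP-2 transcription factor, was at 2.52, 2.098, 1.74 and 2.57 CPM in *syp-2::AID* libraries, against 6.88, 7.39, 7.48 and 4.14 CPM in N2 libraries, and fell by 1.48 with 6 libraries (SE 0.27, edgeR adjusted p = 0.0107).

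Untreated worms did not share this order. The early embryo list summed to 260 to 300 CPM in untreated *syp-2::AID* libraries, against 231 to 268 CPM in untreated N2 libraries, with a median log2 fold change of 0.404. *his-24* was at 21.4 to 32.04 CPM in untreated *syp-2::AID* libraries, against 13.4 to 23.7 CPM in untreated N2 libraries. For no gene of the list did the difference between both strain differences pass (for *sdz-14* it was −2.08, edgeR adjusted p = 0.174). Oocyte and eggshell genes, the other products of the late gonad, had a median of −0.302 over 21 tested members with 8 libraries and −0.0979 with 6, with none called (6 at an unadjusted p under 0.05 with 8, 0 by DESeq2). Over all genes 1873 of 11244 had an unadjusted p under 0.05 with 8 libraries.

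**Figure D5:**
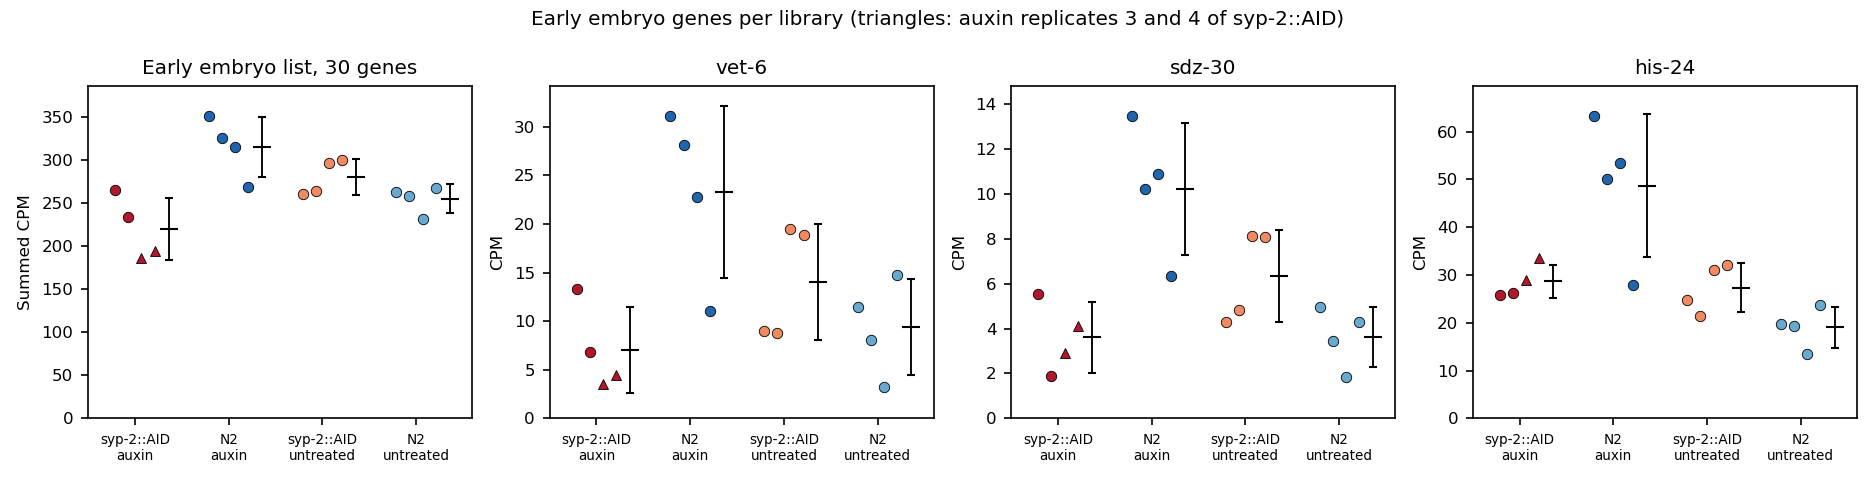
Summed CPM of the 30 tested early embryo genes and CPM of *vet-6*, *sdz-30* and *his-24* in each library of the 4 groups, with mean and SD of each group of 4. Triangles mark the *syp-2::AID* auxin replicates 3 and 4. The auxin-treated N2 libraries are the highest of the 4 groups except for N2 replicate 4, which lies at 11.03 CPM for *vet-6* and 27.9 CPM for *his-24*.

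*cht-1*, a chitinase gene, was the other gene that passed the test of the difference between both strain differences (−2.09 on the log2 scale, edgeR adjusted p = 0.0304). It was at 23.9, 23.01, 20.1 and 22.2 CPM in auxin-treated *syp-2::AID* libraries, against 74.6, 52.4, 51.3 and 30.3 CPM in auxin-treated N2 libraries, with N2 replicate 4 again the lowest of its group. Without auxin the order was the opposite, with 26.6 to 39.9 CPM in *syp-2::AID* libraries, against 13.5 to 20.4 CPM in N2 libraries. The log2 fold changes were −1.26 with auxin (8 libraries, edgeR adjusted p = 0.103) and 0.85 without it (edgeR adjusted p = 0.0363). With *syp-2::AID* auxin replicates 3 and 4 left out, the difference was −2.015 and did not pass (edgeR adjusted p = 0.259). *slcf-2* overlaps *cht-1* on the other strand.

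Without replicates 3 and 4 the test of the difference between both strain differences passed 1 gene, *Y37H2A.14*, at −1.52 (edgeR adjusted p = 0.0423). *Y37H2A.14* was at 8.07, 8.96, 19.6 and 15.8 CPM in auxin-treated *syp-2::AID* libraries, against 17.7, 22.02, 21.5 and 18.3 CPM in auxin-treated N2 libraries. Replicate 3 lay inside the N2 range. In untreated worms it was at 5.88 to 7.30 CPM in *syp-2::AID* libraries, against 4.68 to 7.06 CPM in N2 libraries.

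Ribosomal protein genes were high in replicates 3 and 4. All 75 tested had a log2 fold change above 0 with 8 libraries (median 0.321), none passed, and with 6 libraries the median was −0.127. Markers of other tissues were called in 1 case. Of the body wall muscle (12), pharynx (7), intestine (10), hypodermis (7), neuron (12), somatic gonad (8) and germline (10) markers tested, none passed with 8 libraries, and 1 intestine marker was higher with 6. Over all genes 3 of 11244 passed with 8 libraries, and 183 of 11715 were higher with 6. The germline markers summed to 3101 to 5437 CPM in *syp-2::AID* libraries, lowest in replicates 3 and 4, against 4895 to 5717 CPM in N2 libraries. Of 6 tested sperm genes none passed, and they summed to 20.9 to 28.2 CPM in *syp-2::AID* libraries, against 23.8 to 28.5 CPM in N2 libraries.

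By position, 4.12% of the tested genes on chromosome V were called with 6 libraries (88 of 2138), against 1.41% to 3.12% on the other 5 chromosomes. *syp-2*, the tagged gene, lies on chromosome V. Within 1 Mb of it 0 of 224 tested genes were called with 8 libraries and 11 of 237 (4.64%) with 6. Called genes that were direct neighbours among the tested genes and had the same direction formed 12 groups, such as *ugt-37* with *fat-7*, *ugt-1* with *AC3.5* and *cyp-35C1* with *sptl-3* on chromosome V, all higher. With 8 libraries *AC3.5* and *sptl-3* had log2 fold changes of 0.07 and 0.04. The number of such groups that chance would give was not estimated.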

How the data were processed

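RNA of whole adult worms was measured in 16 libraries, 4 in each of 4 groups, named by strain and treatment in the labels. Per the submitters' processing notes, the authors ran bcl2fastq 2.1.7, aligned reads to ce10 with TopHat2 2.0.11 and counted them per gene with featureCounts, and the deposited values are raw counts. Neither the annotation nor the strand option used is known from these sources. The numbers of replicates come from the labels. Where worms were grown apart is not stated per library, so p-values measure the spread between these libraries.

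The table has 42048 genes (21814 of them without a count) and 0 columns of other samples. Analysis was in R 4.3.3. The 8 auxin libraries were fitted with edgeR 4.0.16 (quasi-likelihood, robust, TMM factors, default filter at 10 counts), with Benjamini-Hochberg adjustment at 0.05. The 8 untreated libraries were fitted in the same way, and the difference between both strain differences in all 16 libraries as 4 groups. CPM used TMM factors over the 16 libraries, and log2 CPM a prior count of 2. Log2 fold changes, with their SE and 95% intervals, come from the fit. In an exact permutation test (two-sided, on CPM), 4 against 4 libraries cannot give a p under 0.0286, which every gene described as not overlapping reaches. Gene names, exon lengths and overlaps came from a WBcel235 annotation (38832 genes matched by symbol, 2309 by sequence name, 907 unmatched). Its build differs from ce10, so no coordinates are given. Gene names turned into dates were not named. The scripts were tested on simulated data.

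Gene lists, members and tests were chosen with earlier results of these data known. The rule for named genes takes *syp-2*, *egl-1*, *dsb-2*, *chk-2*, *sun-1* and *unc-119*, among called genes with a mean of 1 CPM or more and no overlap the 15 that rose and the 15 that fell by most, up to 4 called members of each list or the 2 with the smallest p, and up to 10 genes called with 8 and with 6 libraries, in both treatments or in the difference. With 8 libraries few genes passed. So genes called with 6 libraries, and *him-8*, *vet-6*, *pes-10*, *his-24*, *hil-3*, *col-142* and *Y53G8AR.8*, were named after their values were seen.

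Alternatives were RLE, upper-quartile and no factors, DESeq2 1.42.0, limma-voom (limma 3.58.1) with and without quality weights, no robust estimation, all 16 libraries, a filter at 1 count or at 10 counts per library, a block for the replicate number, the trend with exon length removed, and each library left out. For the 6-library fit they were chosen after seeing the data.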

Additional observations from a re-analysis of the deposited data

Results flagged for a closer look

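In 10 of 180 groups of 4 libraries, over the genes the text draws on, the highest or lowest library lay far from the other 3 by Dixon's criterion, which chance alone does in about 1 of 20 groups. Among *syp-2::AID* libraries these were replicate 1 for *syp-2* (28.33 CPM, the others 24.29 to 24.47), and replicate 4 for *cyp-35C1* (123.3 CPM, the others 96.78 to 101.3) and *clec-210* (18.42 CPM, the others 13.79 to 14.5). Among N2 libraries these were replicate 2 for *cyp-35C1* (70.96 CPM, the others 62.65 to 63.31), *gst-5* (83.89 CPM, the others 60.44 to 64.22), *AC3.5* (29.27 CPM, the others 24.5 to 25.06) and *clec-63* (756.1 CPM, the others 631.8 to 644.3). N2 replicate 4 was low for *hil-3* (14.2 CPM, the others 26.07 to 28.48) and *C34H4.1* (3.9 CPM, the others 4.546 to 4.676), and N2 replicate 1 for *clec-85* (20.81 CPM, the others 26.18 to 26.87).

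By the edgeR test over all 16 libraries, the strain difference with auxin differed from the one without it for *egl-1* (3.08 on the log2 scale) and *cht-1* (−2.09). Without *syp-2::AID* auxin replicates 3 and 4 neither gene passed (edgeR adjusted p = 0.1 and 0.259). *egl-1* was higher with auxin in 4 of 4 *syp-2::AID* libraries than in any N2 library, and *cht-1* was lower in 4 of 4.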

How the results depend on the processing

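The number of genes called in auxin-treated worms moved with the settings. In place of 3 genes there were 6 with no factors, 314 by DESeq2, 0 by limma-voom, 418 by limma-voom with quality weights, 124 with all 16 libraries fitted, 15 with no filter, 53 with the exon length trend removed, 301 without *syp-2::AID* auxin replicates 3 and 4, and 0 to 3 with 1 library left out (3 only without *syp-2::AID* replicate 1). RLE and upper-quartile factors, 10 counts in every library and no robust estimation each gave 3. For untreated worms, in place of 278 genes, there were 1100 by DESeq2, 437 with no filter and 15 to 2015 with 1 library left out. For the difference between both strain differences, in place of 2 genes, there were 131 by DESeq2, 0 by limma-voom, 1 with 10 counts in every library, 5 with the trend removed, 1 without replicates 3 and 4 and 0 to 3 with 1 library left out. For the 6-library fit the other settings gave 317 (RLE), 395 (DESeq2), 241 (limma-voom), 302 (10 counts in every library) and 347 genes (trend removed). Over 88 genes, those named in the text among them, with a value in the 8-library test and all its settings, 1555 values kept their direction and side of the threshold, 242 passed only under the alternative, 28 no longer passed and 16 turned, in 7 genes. Without replicates 3 and 4, *chk-2* turned to 0.04 and *nlp-30* to −0.61 (−0.47 with quality weights). *nhr-14* turned to −0.34 by limma-voom and −0.25 with the replicate block, and *sptl-3* to −0.02 in both. With 1 library left out, log2 fold changes ran from −0.27 to 0.12 for *lys-4*, −0.18 to 0.09 for *clec-50*, −0.35 to 0.40 for *nhr-14*, −0.12 to 0.23 for *AC3.5* and −0.12 to 0.20 for *sptl-3*. The causes were not tested. Depth limits genes such as *egl-1*, which was at 0.499 to 0.914 CPM in N2 libraries.

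The labels do not say if equal replicate numbers mark a shared batch. Deviations of libraries with the same number correlated at 0.177, −0.0515, −0.123 and −0.0617, which cannot settle it. With the replicate number as a block the counts of calls were 0 with auxin, 1194 in untreated worms and 0 for the difference. Without the block they were 3, 278 and 2.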
